A study of Glycine max with 12 samples.

Results

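Glyma.13G360600.1 and Glyma.15G013300.1 are soybean gene models, on chromosomes 13 and 15 by their names, that the deposited annotation gives an F-box domain and a kelch motif each, and whose closest Arabidopsis match is the same locus, AT1G80440. These 2 of the 56044 models were chosen by their low RPKM (hits per kilobase of model, scaled to the hits of the library) in the black seed coat of W55 relative to the yellow seed coat of Williams. That difference is therefore a description here and supports nothing else. The models are 1835 and 1633 nucleotides long.

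The series is an RNA-Seq survey of soybean (*Glycine max*) with 12 libraries, 1 per condition, from greenhouse plants. The seed coat of 25–50 mg immature seed was sequenced from W55 (Williams 55), which carries the i mutation and has black seed, and from Williams, which carries the ii allele (yellow seed coat, black hilum). W55 lacks most of the chalcone synthase (CHS) gene cluster that in Williams gives rise to silencing small RNAs, together with 8 other genes. The pedigree given by the study places the origin of W55 in a backcross isoline of Williams. The other 10 libraries are all from Williams: seed coats of 5–6 mg immature seed, of 200–300 mg yellow desiccating seed and of mature dry seed; cotyledons of 5–6 mg, 200–300 mg desiccating (without the embryo axis) and dry seed; axes dissected from embryos of desiccating seed at 300–400 mg and at 200–300 mg; roots of seedlings at 5 days; and furled leaf trifoliates of adult plants. Weights are fresh weights of a seed, and desiccating seed loses weight, and the study places the 300–400 mg axes before the 200–300 mg axes. With 1 library per condition no difference has a replicate check, no test across libraries was possible, and the 95% intervals cover counting error only. In whole tissues, fewer cells with a transcript and less transcript per cell cannot be told apart.

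Kelch F-box proteins are adaptors of SCF ubiquitin ligases: the F-box binds the SKP1 subunit and the kelch repeats hold the protein to be ubiquitinated. In Arabidopsis, AT1G80440 and its relative AT1G15670 take part in the turnover of phenylalanine ammonia-lyase, the entry enzyme of the phenylpropanoid pathway, and of the type-B response regulators that carry the cytokinin signal. Another kelch F-box protein of Arabidopsis, AT1G23390, acts on chalcone synthase, the first enzyme of flavonoid and anthocyanin synthesis. The proteins that the soybean models act on were not measured.

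The library totals, which are numbers of alignments, ranged from 14.7 M in leaf to 187 M in root, with 23.9 M in the W55 seed coat and 19.9 M in the Williams seed coat of 25–50 mg. These 2 seed coats were sequenced on the same type of instrument with paired reads, whereas the other libraries had single reads, most of them on a newer instrument. Of the 8 models other than CHS in the deleted region, 7 had at least 1 RPKM in Williams, and all 7 were more than 2-fold lower in W55. Unannotated models in one stretch of chromosome 13 took between 2.32% of the summed RPKM in W55 and 75.6% in the 5–6 mg seed coat, so levels across stages were also taken without them. Most marker lists followed the labels. Late embryogenesis abundant proteins, which accumulate as seed dries, took 3.75 to 7.84% of the summed RPKM in desiccating and dry seed. They took at most 0.318% elsewhere. Chlorophyll a/b binding proteins took 5.05% in leaf and at most 0.376% elsewhere, and Casparian strip proteins of the root were highest in root at 0.0134%. Seed storage globulins followed the labels only in part. Late cotyledons had the highest shares, 0.778% at 200–300 mg and 0.581% when dry. Cotyledons of 5–6 mg seed had 0.00156%, above the seed coat of that weight (7.29e-05%). That was below the 25–50 mg seed coats of Williams (0.0121%) and W55 (0.00438%). At 200–300 mg the seed coat (0.129%) was level with the embryo axis (0.132%).

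Both kelch F-box models were low in the black seed coat. Glyma.13G360600.1 had 0.959 RPKM in the W55 seed coat (95% interval 0.691–1.30, 42 hits), against 15.3 RPKM in the Williams seed coat of the same weight (14.1–16.7, 559 hits). Glyma.15G013300.1 had 1.62 RPKM in the W55 seed coat (1.24–2.07, 63 hits), against 22.0 RPKM in the Williams seed coat (20.4–23.7, 714 hits). The intervals of the 2 seed coats, whose values were used in the choice, did not overlap for either model.

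Glyma.13G360600.1 was 16.0-fold lower in W55 than in Williams (95% interval 11.7–22.4), a difference of −3.87 on the log2(RPKM + 0.1) scale. Glyma.15G013300.1 was 13.6-fold lower (10.5–17.9), a log2 difference of −3.69. The fold intervals of the 2 models overlap. Among the 31256 models that reached 1 RPKM in one of the 2 seed coats, ordered by the log2 difference from the lowest, Glyma.13G360600.1 was at position 13 and Glyma.15G013300.1 at position 18. A fall of at least 4-fold was seen for 144 of these models, or 0.461%, and the 2 kelch F-box models are among them by choice. Among 6690 models of 1500 to 2000 nucleotides, close to the lengths of the pair, 17 were at least 4-fold lower in W55 (0.254%). The scatter of the 2 seed coats sets the pair well below the limit.

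**Figure D1:**
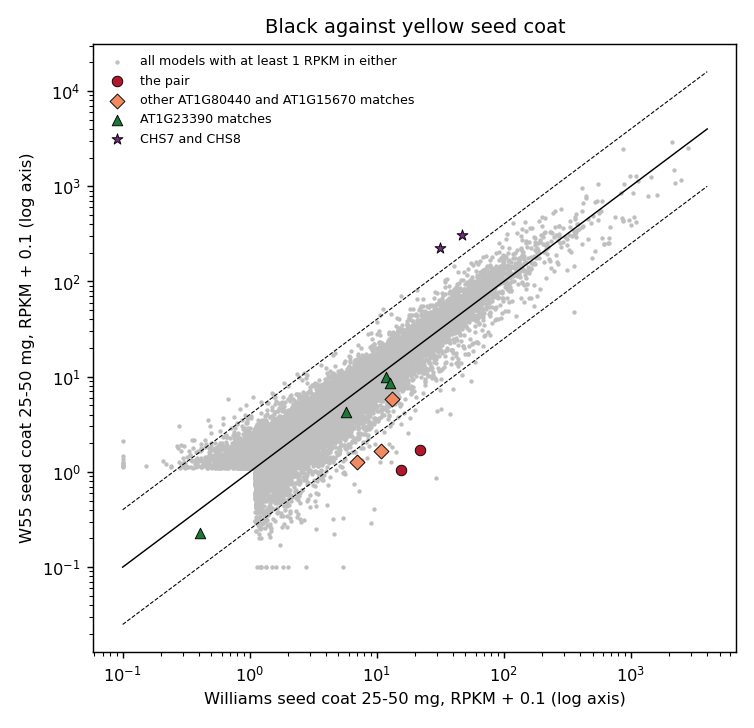
RPKM + 0.1 in the W55 seed coat against the Williams seed coat of 25–50 mg, both on log axes, with the line of equality (solid) and the 4-fold lines (dashed); grey points are models that reached 1 RPKM in one of the libraries. The kelch F-box pair (circles) lies under the lower 4-fold line, 16.0-fold and 13.6-fold below the Williams level, while the AT1G23390 matches lie closer to the line of equality and CHS7 and CHS8 above the upper 4-fold line.

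The order of models within a library does not depend on the library total. It describes again the difference used to choose the pair and adds no support to it. From the most abundant, Glyma.13G360600.1 was at position 30034 of 56044 in the W55 seed coat and at 4380 in the Williams seed coat of 25–50 mg. Glyma.15G013300.1 was at position 25797 in the W55 seed coat and at 2779 in the Williams seed coat. Relative to the summed RPKM of the 29 other models with an F-box and a kelch domain, Glyma.13G360600.1 stood at 0.773% in W55 and 11.8% in Williams. Glyma.15G013300.1 stood at 1.30% of that sum in W55 and 16.9% in Williams.

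In Williams the pair was measured in every tissue, and each of the 11 Williams libraries was above W55 for both models. In the seed coat, Glyma.13G360600.1 had 9.36 RPKM at 5–6 mg, 15.3 RPKM at 25–50 mg, 4.48 RPKM at 200–300 mg and 7.91 RPKM in dry seed. In the cotyledon it had 3.67 RPKM at 5–6 mg, 4.29 RPKM at 200–300 mg and 4.86 RPKM in dry seed. It had 1.03 RPKM in the 300–400 mg embryo axis, 2.99 RPKM in the 200–300 mg axis, 5.17 RPKM in root and 3.15 RPKM in leaf. By RPKM, 3 of the 4 Williams seed coats held the 3 highest levels of this model, the highest being the value used in its choice. In TPM the 25–50 mg seed coat (44.1) was followed by root (13.67) and the dry seed coat (13.63), which were level. The 5–6 mg seed coat had 11.3 in TPM. The 300–400 mg axis held the lowest Williams level, 1.07 times that of the W55 seed coat, and the interval of that ratio (0.762–1.54) includes 1. The median over the 11 Williams libraries was 4.48 RPKM, and the highest was 14.9 times the lowest.

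Glyma.15G013300.1 had a different order. In the seed coat it had 13.96 RPKM at 5–6 mg, 22.0 RPKM at 25–50 mg, 14.04 RPKM at 200–300 mg and 7.01 RPKM in dry seed. In the cotyledon it had 5.66 RPKM at 5–6 mg, 21.9 RPKM at 200–300 mg and 24.9 RPKM in dry seed. It had 3.52 RPKM in the 300–400 mg embryo axis, 8.72 RPKM in the 200–300 mg axis, 4.69 RPKM in root and 5.61 RPKM in leaf. By RPKM the dry cotyledon was the highest library for this model, 1.13 times the Williams seed coat of 25–50 mg (1.05–1.23). That place depended on the scaling: by the median ratio, and without the chromosome 13 models, the 5–6 mg seed coat was the highest, and in TPM the 25–50 mg seed coat. The 300–400 mg axis was again the lowest Williams library, here 2.18 times the W55 seed coat (1.68–2.88). The median over Williams was 8.72 RPKM and the highest level was 7.07 times the lowest.

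**Figure D2:**
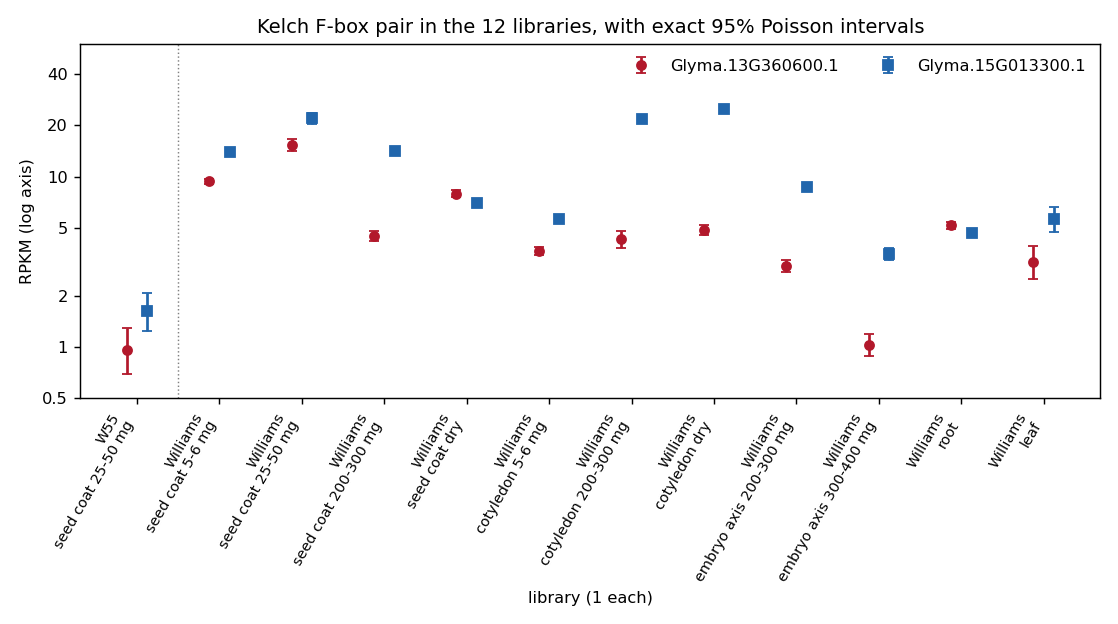
RPKM of the kelch F-box models in the 12 libraries (log axis; circles Glyma.13G360600.1, squares Glyma.15G013300.1; bars are exact 95% Poisson intervals from the hits, 1 library per condition), with W55 left of the dotted line. W55 has the lowest point for both models, at 0.959 and 1.62 RPKM, and by RPKM the squares reach their highest points in the cotyledons of desiccating and dry seed and in the 25–50 mg seed coat.

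Several neighbours in these orders could not be told apart by counting error. For Glyma.13G360600.1, the interval of the ratio includes 1 for each step along root, dry cotyledon, 200–300 mg seed coat and 200–300 mg cotyledon, and again along 5–6 mg cotyledon, leaf and the 200–300 mg axis. For Glyma.15G013300.1 the same held between the 25–50 mg seed coat and the 200–300 mg cotyledon, and between the seed coats of 200–300 mg and 5–6 mg. It also held for each step along 5–6 mg cotyledon, leaf and root. The ends of these longer runs had intervals that did not overlap, as for Glyma.15G013300.1 in 5–6 mg cotyledon (5.39–5.93 RPKM) and root (4.45–4.94 RPKM).

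Stage by stage, both models were lower in the 200–300 mg than in the 25–50 mg Williams seed coat, where the choice of the models had used the 25–50 mg value. The ratio was 0.292 (0.262–0.325) for Glyma.13G360600.1 and 0.638 (0.587–0.694) for Glyma.15G013300.1. Between the 25–50 mg and the 5–6 mg seed coat the ratio was 1.64 (1.49–1.79) for Glyma.13G360600.1 and 1.58 (1.45–1.71) for Glyma.15G013300.1 by RPKM. Leaving those chromosome 13 models out of the library total turned that direction, to 0.696 for Glyma.13G360600.1 and 0.670 for Glyma.15G013300.1, so no order of these 2 stages is given. Over all models the median log2 difference in this comparison was 1.62.

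From the desiccating to the dry seed coat the models parted. Glyma.13G360600.1 was 1.77 times as high in the dry as in the 200–300 mg seed coat (1.63–1.92), whereas Glyma.15G013300.1 was 0.499 times as high (0.467–0.534). With libraries scaled by the median ratio to a common reference these became 2.84 for Glyma.13G360600.1 and 0.803 for Glyma.15G013300.1, and in TPM 1.11 for Glyma.13G360600.1 and 0.312 for Glyma.15G013300.1. Over all models the median log2 difference in RPKM was −0.97, close to the −0.99 of Glyma.15G013300.1. In the cotyledon, dry against 200–300 mg seed, the ratios were 1.13 (0.996–1.29) for Glyma.13G360600.1 and 1.14 (1.07–1.21) for Glyma.15G013300.1, and relative to the other kelch F-box models the second was 0.791. Earlier in cotyledon development, 200–300 mg against 5–6 mg seed, Glyma.15G013300.1 was 3.87 times as high (3.60–4.15), and 1.56 times relative to the other kelch F-box models. Glyma.13G360600.1 was 1.17 times as high in the same comparison (1.03–1.33), and 0.823 times without the chromosome 13 models.

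In the embryo axis both models were higher at 200–300 mg than at 300–400 mg, by 2.91 times (2.45–3.46) for Glyma.13G360600.1 and 2.48 times (2.24–2.74) for Glyma.15G013300.1. Against the cotyledon of the same 200–300 mg seed, the axis had 0.697 times the level of Glyma.13G360600.1 (0.604–0.804) and 0.399 times that of Glyma.15G013300.1 (0.370–0.430). In dry seed, the seed coat had 1.63 times the cotyledon level of Glyma.13G360600.1 (1.51–1.76) but 0.282 times that of Glyma.15G013300.1 (0.265–0.299). At 5–6 mg the seed coat was above the cotyledon for both, 2.55 times for Glyma.13G360600.1 (2.39–2.73) and 2.47 times for Glyma.15G013300.1 (2.33–2.62). Over all models the median log2 difference was −1.01 here, and without the chromosome 13 models the ratio was 4.18 for Glyma.13G360600.1 and 4.05 for Glyma.15G013300.1. Root was 1.64 times leaf for Glyma.13G360600.1 (1.32–2.07) and 0.835 times leaf for Glyma.15G013300.1, with an interval that includes 1.

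The ratio of the 2 models within a library does not depend on its total. Glyma.15G013300.1 was 1.69 times Glyma.13G360600.1 in the W55 seed coat (1.12–2.55) and 1.44 times in the Williams seed coat of 25–50 mg (1.28–1.61). These intervals overlap, so a shift in the balance of the pair between the 2 seed coats was not detectable at this depth. The ratio was 1.49 in the 5–6 mg seed coat (1.42–1.57) and 1.54 in the 5–6 mg cotyledon (1.43–1.66). It was 5.13 in the dry cotyledon (4.79–5.49) and 5.10 in the 200–300 mg cotyledon (4.50–5.79). Immature seed tissues of up to 50 mg thus had ratios close to one another, and the late cotyledon stood apart.

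**Figure D3:**
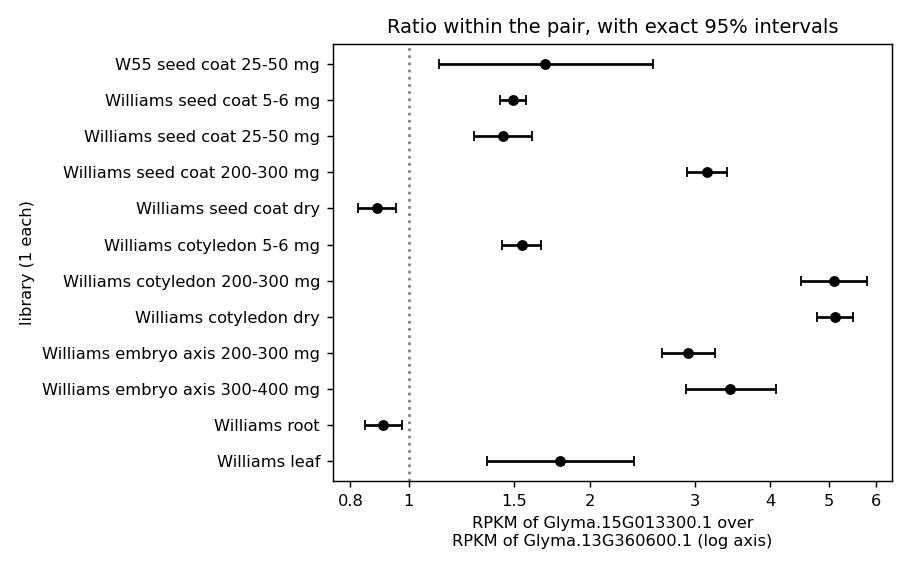
RPKM of Glyma.15G013300.1 divided by RPKM of Glyma.13G360600.1 in each library (log axis; bars are exact 95% intervals; the dotted line marks equal levels). The late cotyledons are at 5.13 and 5.10, the dry seed coat and root lie below 1 at 0.886 and 0.907, and the W55 interval (1.12–2.55) overlaps that of the Williams seed coat of the same weight.

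The other late seed tissues lay between, with ratios of 3.43 in the 300–400 mg axis (2.89–4.08), 3.14 in the 200–300 mg seed coat (2.91–3.39) and 2.92 in the 200–300 mg axis (2.64–3.23). Leaf had 1.78 (1.35–2.37). Only in root, at 0.907 (0.846–0.973), and in the dry seed coat, at 0.886 (0.824–0.954), was Glyma.13G360600.1 the higher of the 2 models among the 12 libraries. Over the 11 Williams libraries the correlation of the 2 models on the log2(RPKM + 0.1) scale was 0.59 (Pearson) or 0.48 (Spearman), as a description over libraries that differ in depth, tissue and instrument.

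Other models of the same kind were also lower in the black seed coat. The soybean models whose closest match is AT1G80440 number 4, and 1 more matched AT1G15670. No model matched the other 2 Arabidopsis loci put in the list with them. Glyma.08G207700.1, a match of AT1G80440, had 1.55 RPKM in the W55 seed coat and 10.7 RPKM in the Williams seed coat, 6.88-fold lower in W55 (5.27–9.10). Glyma.07G034400.1, another match of AT1G80440, had 1.16 RPKM in W55 and 6.88 RPKM in Williams, 5.92-fold lower (4.43–8.04). Glyma.05G155600.1, the AT1G15670 match, had 5.68 RPKM in W55 and 13.2 RPKM in Williams, 2.32-fold lower (1.98–2.74). All 3 are annotated with a kelch domain and without an F-box domain, so they are not among the 29 other models named above. Together the 3 and the pair summed to 10.97 RPKM in W55, of which the pair held 23.5%, and to 68.1 RPKM in Williams, of which the pair held 54.8%. The pair was chosen for its low W55 level, so its lower share there is not a contrast between the pair and its relatives.

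By RPKM these relatives had their highest level in the Williams seed coat of 25–50 mg. By the median ratio Glyma.08G207700.1 stood at 14.1 in the 5–6 mg and 9.14 in the 25–50 mg seed coat, Glyma.07G034400.1 at 7.34 and 5.88, and Glyma.05G155600.1 at 5.66 and 11.3, so the order turned for the first and second of these and not for the third. Glyma.08G207700.1 was above its W55 level in 8 of 11 Williams libraries, Glyma.07G034400.1 in 7 and Glyma.05G155600.1 in 1. The pair was above it in all 11, but its W55 value was used in its choice, so these counts are not a contrast between the pair and its relatives. In the dry cotyledon Glyma.08G207700.1 had 2.14 RPKM, Glyma.07G034400.1 had 0.787 RPKM and Glyma.05G155600.1 had 0.609 RPKM. In that library the pair held 89.4% of the summed level of the 5 models. A read could be aligned to up to 25 models with 3 mismatches, so close copies may share reads, and how many the 5 models share was not tested.

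**Figure D4:**
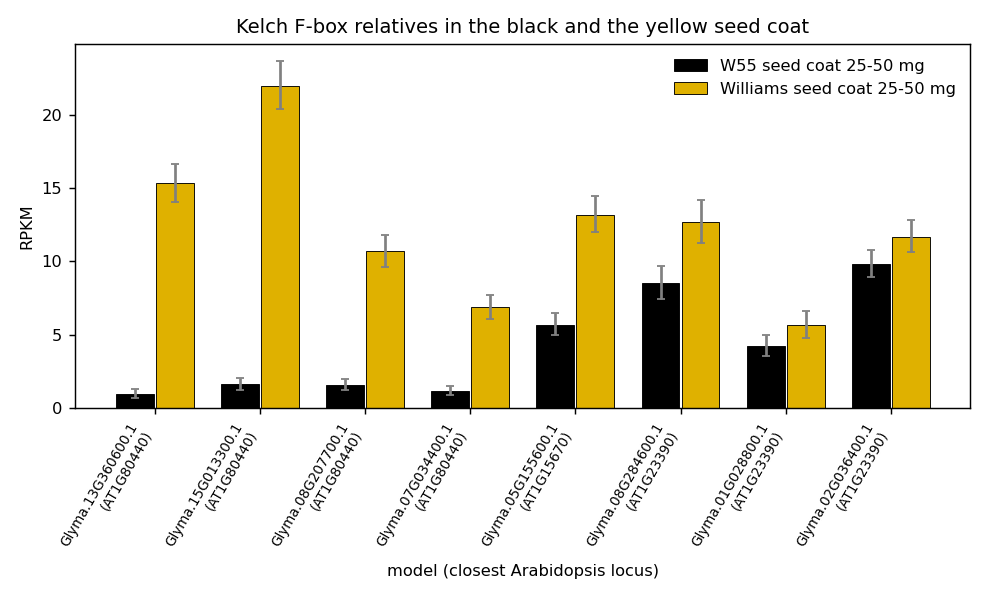
RPKM in the W55 (black bars) and Williams (yellow bars) seed coats of 25–50 mg for the kelch F-box pair and the models closest to AT1G80440, AT1G15670 and AT1G23390 that reached 1 RPKM in any library; error bars are exact 95% Poisson intervals. The 4 AT1G80440 matches stand at 0.959 to 1.62 RPKM in W55 against 6.88 to 22.0 RPKM in Williams, and the AT1G23390 matches differ less.

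The matches of AT1G23390, the kelch F-box protein that acts on chalcone synthase in Arabidopsis, were closer between the 2 seed coats. Glyma.08G284600.1 had 8.52 RPKM in W55 and 12.7 RPKM in Williams, Glyma.01G028800.1 had 4.20 RPKM in W55 and 5.63 RPKM in Williams, and Glyma.02G036400.1 had 9.83 RPKM in W55 and 11.7 RPKM in Williams. Their log2 differences were −0.57, −0.41 and −0.25, and 0 of the 3 passed 2-fold. Over all models, the share 2-fold lower or more in W55 was 3.34%, the share 2-fold higher or more was 2.83%, and the median log2 difference was 0.03. Counts of 0 in short lists are close to these shares.

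Of the 31 models annotated with both an F-box and a kelch domain, 29 reached 1 RPKM in one of the 2 seed coats. The pair were the 2 that were at least 2-fold lower, by choice, and 0 of the other 27 passed 2-fold in either direction. Below the minimum, Glyma.08G103400.1 had 12 hits in W55 and 1 hit in Williams. The most abundant of the 29, Glyma.06G146500.1, a match of AT2G21950 (SKIP6), had 18.3 RPKM in W55 and 16.4 RPKM in Williams. The 7 models close to AT1G55270 (SAGL1), a kelch F-box protein, had a median log2 difference of 0.03, with 0 past 2-fold. Glyma.05G004500.1, the most abundant of them, had 4.64 RPKM in W55 and 4.23 RPKM in Williams. The 6 kelch F-box models with a LOV light-sensing domain had a median of 0.05 and 0 past 2-fold, and Glyma.13G097600.1, a match of the clock protein ZTL, had 10.7 RPKM in W55 and 10.8 RPKM in Williams.

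The SCF core subunits, to which F-box proteins bind, were at similar levels in the 2 seed coats. Of 18 measured models, 0 passed 2-fold and the median log2 difference was −0.10. Glyma.16G123700.1, a match of SKP1, had 124 RPKM in W55 and 157 RPKM in Williams.

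For the enzymes and regulators that these proteins act on in Arabidopsis, no transcript that reached 1 RPKM passed 2-fold. The 7 measured phenylalanine ammonia-lyase models had log2 differences below 0, as did 47.1% of all models, with a median of −0.43, and for Glyma.03G181600.1 and Glyma.03G181700.1 the interval of the ratio includes 1. Below that minimum, Glyma.02G309300.1 had 2 hits in W55 and 14 hits in Williams. Glyma.10G058200.1, a match of PAL1, had 24.9 RPKM in W55 and 32.4 RPKM in Williams. Of 13 measured type-B response regulators, 0 passed 2-fold, 10 were below 0 and the median was −0.25. Glyma.09G098600.1, a match of ARR12, had 5.25 RPKM in W55 and 7.51 RPKM in Williams.

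In the lists of other steps of cytokinin signalling, no model that reached 1 RPKM passed 2-fold by RPKM. The 14 type-A response regulators, which are induced by cytokinin and damp its signal, had a median log2 difference of −0.12. Glyma.04G247800.1, a match of ARR9, had 18.8 RPKM in W55 and 35.5 RPKM in Williams. The 8 cytokinin receptors had a median of −0.21, and the 6 cytokinin oxidases, which break cytokinin down, a median of −0.16. Glyma.08G105000.1, a match of the receptor AHK3, had 5.34 RPKM in W55 and 6.19 RPKM in Williams. Glyma.14G099000.1, an oxidase model, had 4.81 RPKM in W55 and 5.18 RPKM in Williams.

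CHS7 and CHS8, the chalcone synthase genes of the pigmented seed coat, went the other way. Glyma.01G228700.1 (CHS7) had 308 RPKM in W55 and 47.1 RPKM in Williams, and Glyma.11G011500.1 (CHS8) had 223 RPKM in W55 and 31.2 RPKM in Williams. Genes that respond to darkness and low sugar in Arabidopsis were listed because kelch F-box genes of this group respond to light and sugar there. Of the 16 measured, 3 were at least 2-fold lower, against 3.34% of all models, 0 were higher by that limit, and the median log2 difference was −0.37. The count of 3 became 1 with a pseudocount of 1 RPKM and 5 in TPM. The most abundant, Glyma.13G237000.1, a match of the dormancy gene DRM1, had 68.5 RPKM in W55 and 86.3 RPKM in Williams.

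**Figure D5:**
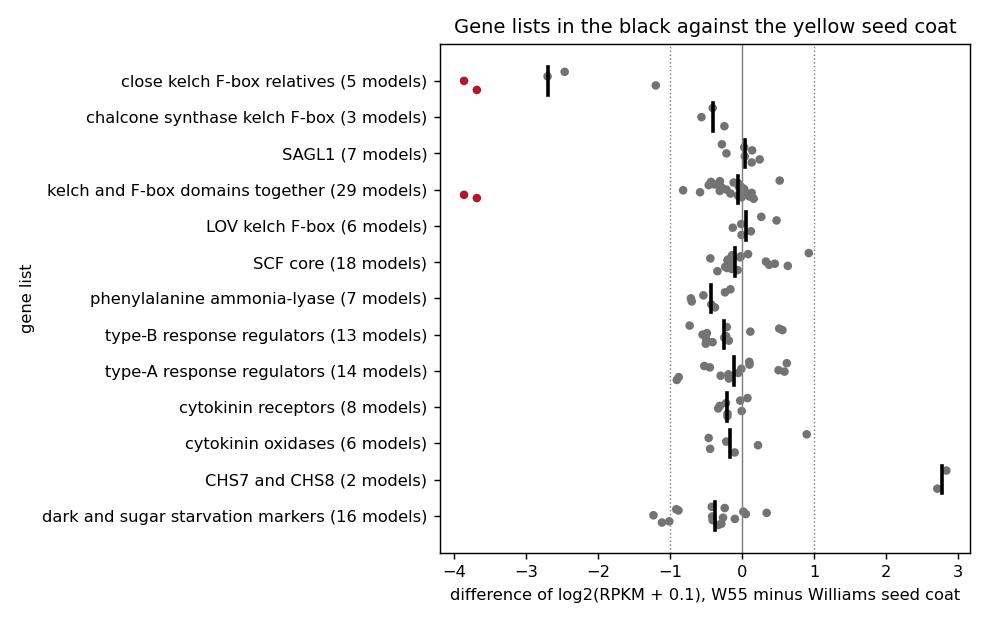
Difference of log2(RPKM + 0.1), W55 minus Williams seed coat of 25–50 mg, for each measured model of the 13 gene lists (points; the kelch F-box pair in red), with the list median as a black bar and 2-fold limits dotted. The 5 close relatives lie between −3.87 and −1.20, CHS7 and CHS8 lie above 2.7, and most other points lie within 2-fold.

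When the falls in W55 were ordered over models that reached 5 RPKM in one of the 2 seed coats, Glyma.13G360600.1 was at position 7 and Glyma.15G013300.1 at position 8. Position 1 was Glyma.08G110800.1, a model without an Arabidopsis match, with 0 hits in W55 and 26 hits in Williams. By its number it lies between models of the deleted region and the galactosidase gene that the study places beside the deletion. It is not among the 8 deleted models counted above, and whether it was deleted was not tested. Positions 2 and 5 were Glyma.08G109800.1 and Glyma.08G109900.1, models of the deleted region. Matches of heat shock proteins or of BAG5 were at positions 6, 9, 10, 11, 13, 17, 18 and 21. The share of all such matches that fell is not given here, so these positions describe the first 25 models only. The other models among the first 25 had varied annotations. The following, matches of chaperones and a co-chaperone, were named after their values had been seen. At position 6, Glyma.18G285100.1, a match of the co-chaperone BAG5, had 0.916 RPKM in W55 and 16.1 RPKM in Williams. At position 9, Glyma.06G202200.1, a match of HSP101, had 0.525 RPKM in W55 and 7.19 RPKM in Williams. At position 11, Glyma.09G131500.1, a match of HSP90.1, had 3.99 RPKM in W55 and 37.4 RPKM in Williams. A lipid-transfer protein model, Glyma.15G199600.1, was at position 3 with 0.191 RPKM in W55 and 8.97 RPKM in Williams.

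The models most like the pair in profile were sought over the 11 Williams libraries, without W55, among 25943 models that reached 5 RPKM in one of them. The Williams seed coat of 25–50 mg, whose value was used in the choice of the pair, stayed in the profile. Most of the 10 models found had their highest Williams level there. Likeness was the Pearson correlation with the mean of the pair on the log2(RPKM + 0.1) scale. The highest value was 0.87, for Glyma.13G166500.1, which has a match of no described function and had 3.82 RPKM in the W55 seed coat and 5.98 RPKM in the Williams seed coat of 25–50 mg. The next was a GDSL lipase model, Glyma.02G124000.1, with 57.0 RPKM in W55 and 52.7 RPKM in Williams. Matches of alcohol dehydrogenase 1 took 2 of the first 10 places. Of these, Glyma.13G035200.1 had 383 RPKM in W55 and 273 RPKM in Williams, and Glyma.14G156400.1 had 454 RPKM in W55 and 365 RPKM in Williams.

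The remaining models of the 10 were Glyma.12G120400.1 (a RAB GTPase), Glyma.12G187400.1 (a ribonuclease H-like protein), Glyma.11G134700.1 (a copper transporter), Glyma.01G183700.1 (a homeodomain-like protein), and Glyma.15G168600.1 and Glyma.09G062200.1, both of unknown function. The ratio of W55 to Williams in the seed coat of 25–50 mg lay between 0.638 and 1.49 over all 10. Thus 0 of the 10 were 2-fold lower in W55, which is close to the share of 3.34% over all models. The close relatives were less like the pair in profile than these 10. Among the 25943 models, Glyma.08G207700.1 was at position 269 with a correlation of 0.61. Glyma.07G034400.1 was at position 377 with 0.59, and Glyma.05G155600.1 at position 1076 with 0.47.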

How the data were processed

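RNA-Seq was done on 12 libraries, 1 per condition, and groups were taken from the sample labels. Reads had been aligned by the authors to the transcripts of the soybean gene models with Bowtie 1, where a read could have 3 mismatches and as many as 25 alignments. The deposited values are RPKM, given for 1 splice variant of each of 56044 genes. Libraries were nonstranded, so reads of an overlapping antisense transcript cannot be told apart. Hits and library totals were recovered from the RPKM as whole numbers within 0.001. From them came exact Poisson intervals for levels and exact Clopper-Pearson 95% intervals for ratios. A read could count for several models, so hits are not independent and these intervals may be too narrow. Log2 differences used RPKM + 0.1 and models that reached 1 RPKM in one of the 2 seed coats, with a 4-fold limit (2-fold for lists). The models named are the pair, the matches of AT1G80440, AT1G15670 and AT1G23390 reaching 1 RPKM, the most abundant member of each list, CHS7, CHS8, the 10 models most like the pair in profile, and a few named after their values were seen. The pair and the lists were chosen with earlier results of these data known. The alternatives were other pseudocounts (0.01, 1), minimum levels and scalings. Python 3.11.15, numpy 2.4.6, scipy 1.17.1, pandas 2.3.3 and matplotlib 3.10.9 were used, and the scripts were tested on simulated data.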

Additional observations from a re-analysis of the deposited data

Results flagged for a closer look

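Glyma.15G013300.1 moved in opposite directions in 2 tissues over the same stages of Williams seed. Its log2 difference, dry minus 200–300 mg desiccating seed, was −0.99 in the seed coat, where the median of all models was −0.97, and 0.19 in the cotyledon. With 1 library per stage and tissue, the difference between the tissues was not tested. Relative to the other models with an F-box and a kelch domain the cotyledon difference was −0.34, so the opposite directions depend on the scaling. Glyma.13G360600.1 was 1.77 times as high in the dry seed coat, and 1.13 times as high in the dry cotyledon with an interval that includes 1.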

How the results depend on the processing

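No paired analysis was possible because each condition has 1 library, and for the same reason no library could be left out of a group. The log2 differences of the pair between W55 and Williams kept their direction and stayed past 4-fold under every alternative run, and with a pseudocount of 1 RPKM they were −3.06 for Glyma.13G360600.1 and −3.14 for Glyma.15G013300.1. W55 stayed below all 11 Williams libraries for both models under each scaling. Models at least 4-fold lower in W55 numbered 29 with a pseudocount of 1 RPKM, 492 in TPM and 348 with no minimum. They numbered 47 with at least 5 RPKM in either library and 1045 at a 2-fold limit. Those at least 4-fold higher numbered 6, 276, 273, 15 and 884 in the same order, with 42 after scaling by the median ratio. In TPM the minimum stayed at 1 and the pseudocount at 0.1, which are lower levels than in RPKM. The TPM counts therefore do not show the effect of scaling alone. Between Williams seed coats of 25–50 mg and 5–6 mg the log2 difference reversed, for Glyma.13G360600.1 to −0.61 by the median ratio, −0.52 without the chromosome 13 models and −1.23 relative to the other kelch F-box models, and for Glyma.15G013300.1 to −0.66, −0.58 and −1.29. Between cotyledons of 200–300 mg and 5–6 mg, Glyma.13G360600.1 reversed to −0.045, −0.28 and −1.06 under the same 3 settings. Between dry and 200–300 mg cotyledons, Glyma.15G013300.1 reversed to −0.34 relative to the other kelch F-box models. Of the 22 differences of the pair over 11 comparisons within Williams, 0 passed 4-fold by RPKM, where 0.124% to 34.8% of all models did so in one direction of a comparison. The count was 2 by the median ratio, in TPM and without the chromosome 13 models, and 1 relative to the other kelch F-box models. The highest over the lowest Williams level became 20.3 by the median ratio and 19.999 without the chromosome 13 models for Glyma.13G360600.1, and 8.82 and 8.70 for Glyma.15G013300.1. Of the 10 models most like the pair, 5 were shared with the 10 found by Spearman correlation and 5 with those found without the chromosome 13 models. The scaling relative to other kelch F-box models was chosen after seeing the data. At least 2-fold lower in W55 were 1 phenylalanine ammonia-lyase, 1 type-B response regulator and 1 cytokinin oxidase with no minimum, and 1 type-A response regulator in TPM, against 0 of each otherwise in RPKM at the 1 RPKM minimum. Depth limits the W55 values, which rest on 42 and 63 hits.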
